A study of Mus musculus with 36 samples.

Results

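Laminins and the proteins that tie them into the basement membrane were followed as 9 genes of the 24750 in the deposited table of epididymal white adipose tissue (eWAT). They are the laminin alpha chains *Lama2*, *Lama4* and *Lama5*, the beta chains *Lamb1* and *Lamb2*, the gamma chain *Lamc1*, the nidogens *Nid1* and *Nid2*, and *Hspg2*, which encodes perlecan. The genes were chosen by family, after *Lamb1* had been seen to be higher in ligatured mice in these same libraries, so the values of the ligature comparison are given below as a description without a test. Each gene had 1 row in the table, found by its Ensembl ID, and all 9 were measured in every library, with 111 reads at the lowest (*Lama5*).

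A laminin is a trimer of an alpha, a beta and a gamma chain, and the trimers join into a sheet at the cell surface, where integrins and dystroglycan hold them. Nidogens and perlecan connect this sheet to the network of type IV collagen. In fat, such a basement membrane surrounds each adipocyte and each capillary. *Lama4* and *Lama5* are the alpha chains known from vessel walls, *Lama4* also from around adipocytes, and *Lama2* is best known from muscle and peripheral nerve.

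The 36 libraries came from male mice, 3 in each of 12 groups. WT mice were C57BL/6. In CCL19-KI mice, kept as a separately bred homozygous line, *Ccl19* had been inserted at the *Adipoq* locus, with *Adipoq* itself left intact, so that adipocytes express it. The diet was ND, 40% HFD or 60% HFD over 10 weeks, and those with a ligature received it around an upper molar on both sides at 14 weeks of age, 8 weeks into feeding, to induce periodontitis for the last 2 weeks. The labels give a ligature for 18 mice and name none for the other 18. The series' design text speaks of ligature in all groups, and the labels were followed. RNA was depleted of rRNA and made into directional libraries. Nothing in the labels says how the replicates were processed.

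Values are CPM normalised with edgeR (normalised CPM), and differences are log2 differences of normalised CPM + 1, with the standard error (SE) of the fit. The libraries held 11962228 to 21581595 reads, and a single read was worth 0.0472 to 0.0834 normalised CPM. *Ccl19*, the inserted gene, was 0.687 to 34.6 normalised CPM in the 18 libraries labelled CCL19-KI and 0.507 to 19.2 in the 18 labelled WT. Of these, 2 libraries went against their label: the library labelled ND-fed unligatured WT mouse 2 had 19.2, above the CCL19-KI median of 16.2, and the library labelled 60% HFD-fed unligatured CCL19-KI mouse 3 had 0.687, below the WT median of 1.25. Tests are therefore also given without these 2 libraries where a call changes. The 10 adipocyte markers, which define the labelled tissue, summed to 4877 to 29660 normalised CPM. Markers of epididymis summed to more than 1000 normalised CPM in 6 libraries (up to 13080, median over all libraries 2.55), and those of hepatocytes to more than 1000 in 34 (131 to 41840). A hepatocyte sum above 1000 did not always mean that the whole list was high. Ligatured ND-fed CCL19-KI mice 2 and 3 had sums of 1746 and 2703 with mean log2 levels of 1.67 and 1.9. Unligatured ND-fed WT mouse 1, with a sum of 131, had 1.68. In bulk tissue, fewer cells of a type and less RNA per cell cannot be told apart.

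To show the promoter sequence of the genes that the results turn on, the bases from -250 to -61 relative to the RefSeq start are given for *Lamb1*, which led the choice of the genes, and for *Hspg2* and *Nid1*, which differed between diets (GRCm38.p6, 5′ to 3′, all on the plus strand). The RefSeq table used held 6 of the 9 genes. Capitals mark the GC box GGGCGG and the CCAAT box CCAAT, searched on both strands, so that CCGCCC and ATTGG are marked as well.
Lamb1 (chr12:31265043-31265232): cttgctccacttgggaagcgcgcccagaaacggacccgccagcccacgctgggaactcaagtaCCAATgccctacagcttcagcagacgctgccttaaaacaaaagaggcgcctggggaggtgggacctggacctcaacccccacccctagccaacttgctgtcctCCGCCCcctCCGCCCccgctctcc
Nid1 (chr13:13437352-13437541): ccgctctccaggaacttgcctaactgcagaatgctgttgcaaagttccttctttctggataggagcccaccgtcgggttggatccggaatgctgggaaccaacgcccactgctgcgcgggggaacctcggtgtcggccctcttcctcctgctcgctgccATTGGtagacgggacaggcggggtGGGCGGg
Hspg2 (chr4:137468553-137468742): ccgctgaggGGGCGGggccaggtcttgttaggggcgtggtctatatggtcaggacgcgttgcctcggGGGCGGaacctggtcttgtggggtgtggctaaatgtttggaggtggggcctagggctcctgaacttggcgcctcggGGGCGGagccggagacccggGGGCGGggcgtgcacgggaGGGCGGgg
*Hspg2* held 5 GC boxes and no CCAAT box, *Lamb1* held 2 and 1, and *Nid1* held 1 of each, and none held TATAAA. In all 32851 windows of this length in the table, a GC box was found in 22.8%, at least 2 in 9.11%, a CCAAT box in 26.7% and TATAAA in 8.73%. The windows of the 3 genes were 64.2%, 62.6% and 70.5% G or C, beside a median of 51.6%.

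The genes lie on 8 chromosomes of GRCm38. *Lamb1* spans 31265234 to 31329644 of chromosome 12 on the plus strand, *Lamb2* 108479736 to 108490530 of chromosome 9 (plus) and *Lamc1* 153218922 to 153332786 of chromosome 1 (minus). Of the alpha chains, *Lama2* (26980036 to 27619758, minus) and *Lama4* (38965515 to 39110188, plus) share chromosome 10, and *Lama5* lies at 180176373 to 180225859 of chromosome 2 (minus). *Nid1* spans 13437551 to 13512269 of chromosome 13, *Nid2* 19751265 to 19811787 of chromosome 14 and *Hspg2* 137468769 to 137570630 of chromosome 4, all plus. Exons of *Nid2* overlap those of *Rtraf* on the other strand by 437 bases, and *Rtraf* averaged 90.5 normalised CPM. The library kit keeps the strand but its use in counting is not stated, so the level of *Nid2* is uncertain. The overlaps of *Nid1* (143 bases) and *Lama2* (631 bases) are with antisense genes at 0.296 normalised CPM on average and with no row in the table.

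Per length, the linkers *Nid1* and *Hspg2* were the most abundant of the 9, and *Nid2* lay in the middle. In normalised CPM per kb of exon, the median over the 36 libraries was 155 for *Nid1*, 60.5 for *Hspg2*, 38.5 for *Lamc1*, 27.3 for *Lamb2*, 25.4 for *Nid2*, 22.2 for *Lama4*, 20.6 for *Lamb1*, 9.68 for *Lama2* and 2.02 for *Lama5*. The order of neighbours held in 36 of 36 libraries for *Nid1* above *Hspg2*, for *Lamb1* above *Lama2* and for *Lama2* above *Lama5*. It held in 30 for *Hspg2* above *Lamc1* and in 28 for *Lamc1* above *Lamb2*. The middle of the order was less fixed: *Lamb2* exceeded *Nid2* in 23 libraries, *Nid2* exceeded *Lama4* in 28 and *Lama4* exceeded *Lamb1* in 24, so these neighbours overlap. Among the 3 alpha chains, *Lama4* made up 49.7 to 77.9% of the level per kb (median 66.3%), *Lama2* 17.6 to 40.6% (27.1%) and *Lama5* 2.38 to 16.2% (6.09%). The summed alpha, beta and gamma chains had medians of 33.8, 49.4 and 38.5 normalised CPM per kb.

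**Figure D1:**
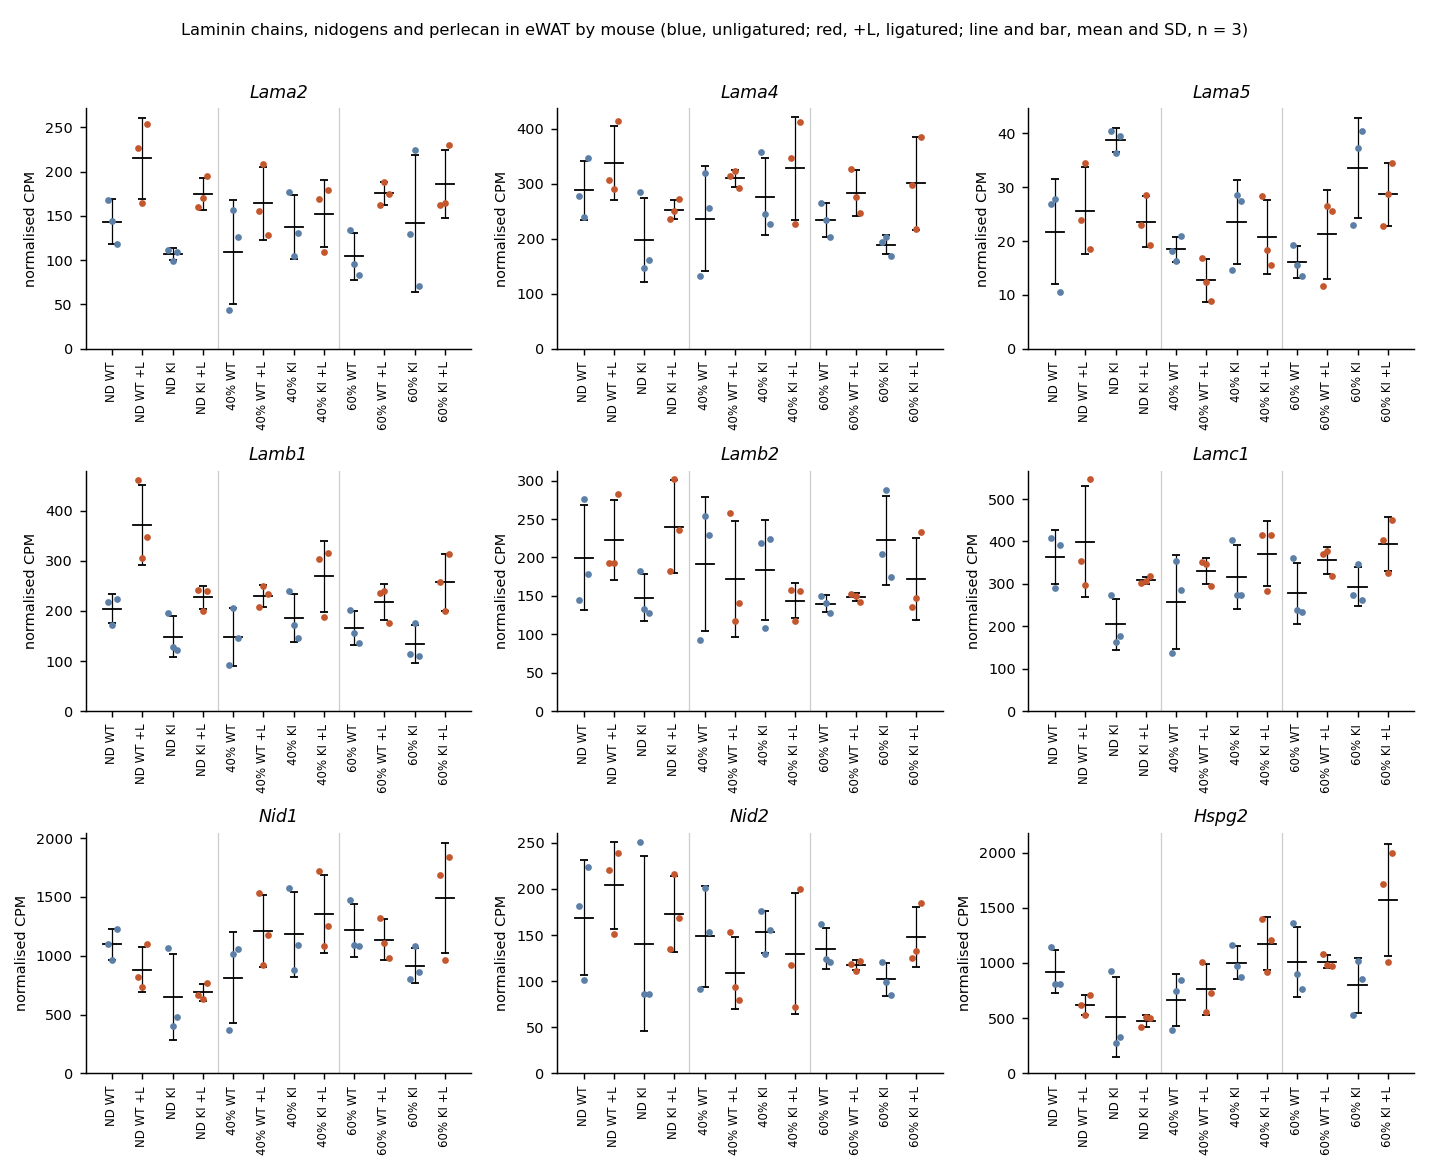
Normalised CPM (vertical axis, from 0) of each gene in the 12 groups; each point is a mouse, blue without and red with a ligature (+L), and lines and bars are the mean and SD of 3 mice. *Lamb1* is higher on average in the ligatured group of all 6 pairs, *Hspg2* and *Nid1* are highest in ligatured CCL19-KI mice fed a 60% HFD, and *Lama5* is highest in unligatured CCL19-KI mice fed an ND.

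The ligature comparison asks how eWAT differs in mice with periodontitis, and it is the comparison the genes were picked from. *Lamb1*, a beta chain that forms trimers with *Lama4* and with *Lama5*, was higher in the ligatured group of all 6 combinations of diet and genotype. On the ND, *Lamb1* was 462, 306 and 348 normalised CPM in the 3 ligatured WT mice and 218, 171 and 224 in the unligatured ones. In CCL19-KI mice fed the ND, it was 242, 200 and 240 with and 196, 128 and 122 without a ligature. In both genotypes, every ligatured mouse lay above every unligatured one.

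On the 40% HFD, *Lamb1* was 207, 250 and 234 normalised CPM in ligatured and 91.5, 206 and 147 in unligatured WT mice. In CCL19-KI mice, the values were 304, 188 and 316 against 240, 173 and 147. The WT groups did not overlap, though the highest unligatured and the lowest ligatured mouse were close, and the CCL19-KI groups overlapped. On the 60% HFD, *Lamb1* was 237, 240 and 176 normalised CPM in ligatured and 203, 157 and 137 in unligatured WT mice. In CCL19-KI mice, it was 257, 199 and 315 with and 114, 177 and 109 without a ligature. Here the CCL19-KI groups were separate and the WT groups overlapped, because WT mouse 3 with a ligature was below WT mouse 1 without.

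Averaged over the 6 combinations, *Lamb1* was higher with the ligature by 0.68 on the log2 scale (SE 0.11), a fold of 1.60. The difference was between 0.40 (WT, 60% HFD) and 0.95 (CCL19-KI, 60% HFD). Over the 18 ligatured mice, *Lamb1* ranged from 176 to 462 normalised CPM with a median of 241, and over the 18 others from 91.5 to 240 with a median of 164. Leaving out each mouse in turn gave 0.63 to 0.72, and leaving out the 2 libraries that went against their label gave 0.64. In the same fit, 58 of the 17852 genes tested passed an adjusted p of 0.05 for the averaged ligature contrast (0.325%), *Lamb1* among them. As the choice rests on that contrast, nothing is read from this.

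*Lamb1* was joined by the alpha chains *Lama2* and *Lama4* and the gamma chain *Lamc1*, each also higher on average in all 6 combinations. *Lama2* was higher by 0.58 (SE 0.145, 0.15 to 0.77 over the combinations), with 110 to 254 normalised CPM (median 170) in ligatured and 43.7 to 224 (median 122) in unligatured mice. *Lama4* was higher by 0.38 (SE 0.11, 0.22 to 0.63), with medians of 295 and 238 normalised CPM. *Lamc1* was higher by 0.37 (SE 0.11, 0.10 to 0.62), with medians of 349 and 274. A higher mean in all 6 combinations was found for 2.33% of all genes tested. These genes share libraries with *Lamb1*, and their Pearson correlations with it were 0.80 (*Lama2*), 0.85 (*Lama4*) and 0.79 (*Lamc1*). Their common direction is therefore not a set of separate observations. All 3 ligatured mice lay above all 3 unligatured ones in 4 of the 6 combinations for *Lamb1*, in 2 for *Lama2*, and in 1 each for *Lama4*, *Lamc1* and *Nid2*, and 1.01% of all genes did so in at least 3 combinations.

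The linkers and the remaining chains were less uniform. *Nid1* was higher on average by 0.23 (SE 0.14) but lower with the ligature in WT mice fed an ND (-0.33) or a 60% HFD (-0.09). *Hspg2* was higher by 0.17 (SE 0.15), from -0.56 in WT mice fed an ND to 0.97 in CCL19-KI mice on the 60% HFD. In ND-fed WT mice, all 3 ligatured mice (617, 528 and 710 normalised CPM) were below all 3 unligatured ones (1147, 809 and 806). *Nid2* differed by 0.05 (SE 0.15), *Lamb2*, the beta chain of vessel and nerve basement membranes, by 0.03 (SE 0.14) and *Lama5* by -0.17 (SE 0.14), each with both signs over the combinations. The sign of the average of these 3 was not fixed: *Lamb2* was -0.05 without unligatured WT mouse 1 on the 40% HFD, *Nid2* was -0.01 without ligatured CCL19-KI mouse 3 on the 40% HFD and -0.02 without the 2 libraries that went against their label, and *Lama5* was 0.02 with sample weights.

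**Figure D2:**
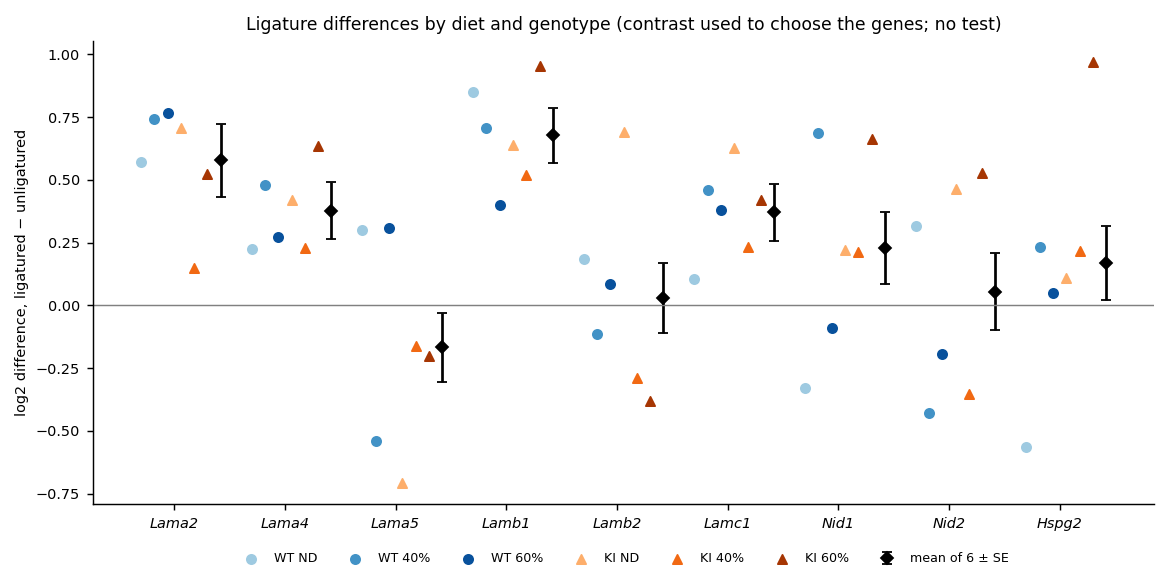
Log2 difference between ligatured and unligatured mice (vertical axis) for each gene in the 6 combinations of diet and genotype (circles, WT, triangles, CCL19-KI) and their mean with its SE (diamonds). All 6 points are above 0 for *Lama2*, *Lama4*, *Lamb1* and *Lamc1*, and the other 5 genes have points on both sides.

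The unligatured library of WT mouse 1 on the 40% HFD stood apart: it was the lowest of all 36 for *Lama2*, *Lama4*, *Lamb1*, *Lamb2*, *Lamc1* and *Nid1*, and its adipocyte markers summed to 4877 normalised CPM, the lowest as well. Without it, the averaged ligature difference was 0.63 for *Lamb1*, 0.48 for *Lama2*, 0.31 for *Lama4*, 0.30 for *Lamc1* and 0.14 for *Nid1*. Averaged over the combinations, 9 of the 10 adipocyte markers were higher with the ligature, with a median log2 difference of 0.43 beside -0.02 over all genes. Limma called 0 of them (6 at an unadjusted p below 0.05, and 0 by edgeR). By combination, where *Lamb1* was higher in all 6, their median was 0.06, 1.01 and -0.18 in WT mice (ND, 40% and 60% HFD). In CCL19-KI mice, it was 0.39, 0.24 and 0.90. On the 60% HFD, 8 of the 10 adipocyte markers were lower in ligatured WT mice. Their summed level was 8714 to 29170 normalised CPM in ligatured and 4877 to 29660 in unligatured mice. All 10 macrophage markers were higher as well, with a median of 0.29 (0 called by limma or edgeR, 4 at an unadjusted p below 0.05) and sums of 1560 to 3006 and 888 to 3661. The part of either cell type in the laminin values was not tested. Another 46 genes were followed as lists: 5 laminin chains, 9 basement membrane collagens and proteoglycans, 14 laminin receptors and 18 assembly and associated proteins. Their median ligature difference was -0.01 with 0 called by limma or edgeR (9 at an unadjusted p below 0.05). *Col4a1* and *Col4a2*, the collagen chains to which nidogen and perlecan link the laminins, differed by 0.06 (SE 0.17) and 0.03 (SE 0.19).

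With *Lamb1* higher and *Lamb2* not, the makeup of the beta chain transcripts differed too. Per kb of exon, *Lamb1* was 28.8 to 59.5% of *Lamb1* and *Lamb2* in ligatured mice (median 49.1%) and 25.6 to 49.4% in unligatured ones (37.5%). The lowest group was unligatured CCL19-KI mice fed a 60% HFD, with 25.6, 27.4 and 27.7%, against 53.8, 45.3 and 45.3% with the ligature. These 3 unligatured libraries also carried epididymis markers (sums of 378, 8162 and 13080 normalised CPM) and more smooth muscle markers than WT mice, mouse 3 went against its *Ccl19* label, and over the 36 libraries *Lamb2* followed the scores of both lists (Pearson correlation 0.49 and 0.53). Their part in the share was not tested. CCL19-KI mice fed an ND had no higher mean, with 44.9, 28.9 and 38.3% with and 39.7, 37.3 and 37.0% without a ligature. The ligatured and unligatured shares overlapped in 4 of the 6 pairs, the 3 of WT mice and this one.

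**Figure D3:**
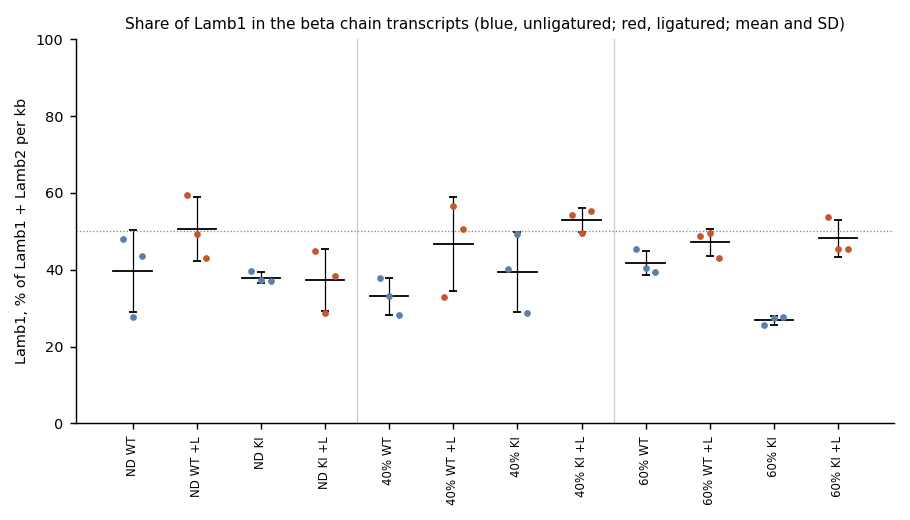
Share of *Lamb1* in the summed *Lamb1* and *Lamb2* levels per kb of exon (vertical axis, percent) in the 12 groups, with each mouse as a point and the mean and SD of 3 mice; the dotted line is 50%. The ligatured groups (red) are higher in mean than their unligatured counterparts (blue) in every pair but CCL19-KI on the ND, 37.4 against 38.0%.

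Whether the ligature difference depended on genotype or diet was tested by limma. These contrasts do not use the averaged ligature difference. They do compare the ligature differences of the same groups in which *Lamb1* had been seen to be higher. They are thus not fully independent of the choice, and no conclusion is drawn from the small values of *Lamb1*. Of the 9 genes, 0 passed for any of the 3 interaction contrasts, by limma or by edgeR. For *Lamb1*, the ligature difference in CCL19-KI mice minus that in WT mice was 0.05 (95% CI -0.40 to 0.50), under the 40% HFD minus that under the ND -0.13 (-0.68 to 0.42) and under the 60% HFD minus that under the ND -0.07 (-0.62 to 0.48). At an unadjusted p below 0.05, 0, 1 and 1 of the genes passed, namely *Nid2* for the 40% HFD (-0.78, adjusted p = 0.515) and *Hspg2* for the 60% HFD (0.74, adjusted p = 0.347, limma). Over all genes, 0.0056%, 0.0056% and 0% passed, so the fit called almost nothing for these contrasts.

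The diets were compared over all 12 mice of each. On the 60% HFD, the linkers *Hspg2* and *Nid1* rose against the ND. The linker *Nid2* (-0.38, 95% CI -0.77 to 0.0032, adjusted p = 0.147, limma) and the 6 laminin chains (-0.27 to 0.09) did not pass. *Hspg2* was 525 to 1993 normalised CPM (median 995) in the 12 mice fed a 60% HFD and 273 to 1147 (median 572) in the 12 fed an ND. The ranges overlapped, and the log2 difference was 0.83 (SE 0.18, 95% CI 0.46 to 1.195, adjusted p = 0.00317, limma), a fold of 1.77. *Nid1* was 802 to 1836 normalised CPM (median 1086) on the 60% HFD and 400 to 1229 (median 794) on the ND, a difference of 0.55 (SE 0.18, adjusted p = 0.0299, limma). Of all genes tested, 18.6% passed for this comparison, so 2 of 9 is near the background.

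Single combinations of genotype and ligature were not tested between diets. In ligatured CCL19-KI mice, *Hspg2* was 416, 509 and 499 normalised CPM on the ND, 1394, 919 and 1210 on the 40% HFD and 1717, 1006 and 1993 on the 60% HFD, so that every HFD-fed mouse lay above every ND-fed one. *Nid1* was 665, 632 and 769 on the ND, 1721, 1087 and 1252 on the 40% HFD and 1684, 963 and 1836 on the 60% HFD, with the same separation. This was the combination with the largest fold of means for both genes, and the share of all genes with such a separation is not given. In unligatured WT mice, *Hspg2* was 1147, 809 and 806 on the ND, 395, 745 and 847 on the 40% HFD and 1362, 898 and 760 on the 60% HFD. *Nid1* was 1097, 967 and 1229 on the ND, 368, 1016 and 1059 on the 40% HFD and 1474, 1089 and 1084 on the 60% HFD. Both had a lower mean on the 40% HFD than on the ND and no separation.

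On the 40% HFD, limma called 0 of the 9 genes against the ND (3 at an unadjusted p below 0.05), where 9.21% of all genes passed, and edgeR called 1, *Lama5*. *Hspg2* was 395 to 1394 normalised CPM (median 895), a difference of 0.55 (SE 0.18, 95% CI 0.19 to 0.92, adjusted p = 0.0502, limma). *Lama5* was 8.90 to 28.6 (median 17.5) on the 40% HFD and 10.6 to 40.5 (median 27.4) on the ND, a difference of -0.51 (SE 0.17, adjusted p = 0.0562, limma). Both lay at the threshold. Without any of 4 mice, *Hspg2* passed (0.60 without ND unligatured WT mouse 1, 0.69 without ND unligatured CCL19-KI mouse 1, 0.64 without 40% HFD unligatured WT mouse 1 and 0.61 without 40% HFD ligatured WT mouse 2), and without any of 4 others so did *Lama5* (-0.62 and -0.56 without WT mouse 3 on the ND, unligatured and ligatured, and -0.56 and -0.57 without ligatured WT and CCL19-KI mouse 1 on the 40% HFD). *Nid1* (0.45, adjusted p = 0.102, limma) passed without ND unligatured CCL19-KI mouse 1 (0.55) or 40% HFD unligatured WT mouse 1 (0.57). Between the 60% and the 40% HFD, 0 genes passed by limma or edgeR (1 at an unadjusted p below 0.05), beside 0.745% of all genes.

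**Figure D4:**
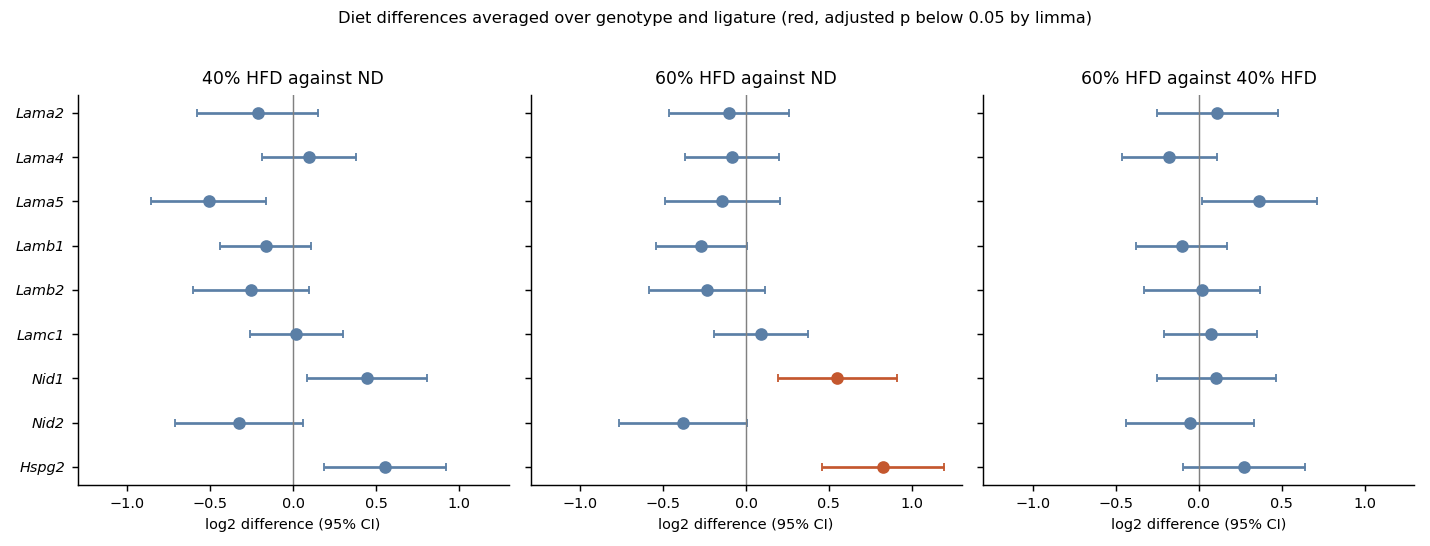
Log2 differences between diets (horizontal axis) with their 95% confidence intervals, averaged over genotype and ligature, for the 9 genes; red marks an adjusted p below 0.05. *Hspg2* (0.83) and *Nid1* (0.55) are red in the comparison of the 60% HFD with the ND, and the other panels have no red point.

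*Hspg2* passed with each mouse left out in turn (0.74 to 0.96) and without the 2 libraries that went against their label (0.79, adjusted p = 0.0106, limma). Without the 6 libraries with epididymal markers, *Hspg2* was 0.65 (adjusted p = 0.0634, limma) and *Nid1* 0.44 (adjusted p = 0.196), so neither passed. *Nid1* also did not pass without the 2 libraries (0.54, adjusted p = 0.0586), nor without any of 8 mice, 5 on the ND (0.53 and 0.52 without WT mouse 2, unligatured and ligatured, 0.48 and 0.51 without unligatured CCL19-KI mice 2 and 3, and 0.54 without ligatured CCL19-KI mouse 2) and 3 on the 60% HFD (0.52 each without unligatured WT mouse 1, ligatured WT mouse 1 and ligatured CCL19-KI mouse 1).

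The partners of the linkers were measured as lists. For the 60% HFD against the ND, 4 of 9 basement membrane collagens and proteoglycans were called higher and 1 lower, with a median over the list of -0.17. *Col15a1*, a collagen at the outer face of the basement membrane, rose by 1.07 (adjusted p = 0.0156), *Col4a2* by 1.05 (adjusted p = 0.00329) and *Col4a6*, a minor type IV chain, fell by 0.79 (adjusted p = 0.0212, limma). Among 14 laminin receptors, 4 were called higher and 0 lower (median 0.17, 6 at an unadjusted p below 0.05, 3 by edgeR), led by the integrin chains *Itga7* (1.09, adjusted p = 0.00259), *Itga6* (0.71, adjusted p = 0.0288) and *Itga1* (0.67, adjusted p = 0.000157, limma). Among 18 assembly and associated proteins, 4 were called higher and 1 lower (median 0.05), with *Sparc*, a collagen-binding matrix protein, at 0.94 (adjusted p = 0.00873), *Pxdn*, which crosslinks type IV collagen, at 0.79 (adjusted p = 0.0131) and *Fbln1* at -0.71 (adjusted p = 0.0439, limma). Of the 5 other laminin chains, *Lamb3*, a beta chain of epithelia, rose by 1.32 (adjusted p = 7.45e-05) and *Lamc3* fell by 1.12 (adjusted p = 0.00189, limma). The median over all genes was 0.01.

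Cell type markers are given beside the same background of 18.6%, which several lists did not exceed. Of 10 endothelial markers, 3 were called higher (*Cldn5* 0.84, *Cdh5* 0.81 and *Tek* 0.47) and 1 lower, with sums of 149 to 373 normalised CPM on the 60% HFD and 131 to 241 on the ND. Of 10 macrophage markers, 3 were called higher (*Trem2* 1.17, *Cd68* 1.12 and *Adgre1* 0.79) and 1 lower, with sums of 945 to 3006 and 888 to 3661. Of 10 adipocyte markers, 1 was higher (*Lep* 1.84) and 1 lower (*Retn* -0.94), with sums of 8344 to 26710 and 6218 to 29660. Of 10 smooth muscle markers, 8 were lower and 2 higher, with a median of -0.87. Limma called 1 higher (*Synpo2* 1.42) and 1 lower (*Smtn* -0.65), with 4 at an unadjusted p below 0.05, and edgeR called 8. Their sums were 709 to 2195 and 231 to 5929. Of 10 hepatocyte markers, 9 were higher (*Alb* 3.53, *Apoa2* 3.44, *Apoa1* 3.31), with sums of 909 to 40900 and 131 to 28620. With the hepatocyte score of each library as a covariate, *Hspg2* differed by 1.10 (adjusted p = 0.00106) and *Nid1* by 0.77 (adjusted p = 0.0139, limma). The hepatocyte markers differed with the diet themselves, so this fit cannot tell their part from that of the diet. The part of the listed cell types was not tested.

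All 4 Schwann cell markers tested of 7 were lower (*Prx* -0.62, *Cdh19* -0.60, sums of 37.8 to 59.7 and 39.5 to 130 normalised CPM), as were 2 of 9 mesothelial markers (*Wt1* -0.81, *Upk1b* -0.80, sums of 215 to 1637 and 571 to 2444), 2 of 10 skeletal muscle markers (*Actn3* -1.09, *Myh4* -0.83, 42.5 to 179 and 56.9 to 591) and 1 of 6 pericyte markers (*Kcnj8* -0.45, 81.6 to 250 and 96.5 to 224). Of 9 kidney tubule markers, 4 were higher (*Kap* 2.34, *Slc34a1* 2.05, *Miox* 1.33, 25.6 to 505 and 65.8 to 311). Limma called 0 of 10 fibroblast and progenitor markers (1 at an unadjusted p below 0.05, 0 by edgeR, 3095 to 8722 and 3901 to 8634) and 0 of 8 epididymis markers tested of 12 (0 at an unadjusted p below 0.05, 0 by edgeR, 0.201 to 13080 and 0.861 to 8530).

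The genotype comparison asks how *Ccl19* expression by adipocytes bears on the tissue. Averaged over diets and ligature, limma and edgeR called 0 of the 9 genes, beside 0.459% of all genes, and *Lama5*, the least abundant alpha chain, came nearest. *Lama5* was 14.6 to 40.5 normalised CPM (median 28.5) in the 18 CCL19-KI and 8.90 to 34.5 (median 18.3) in the 18 WT mice. The ranges overlapped, and the log2 difference was 0.54 (SE 0.14, 95% CI 0.26 to 0.83, adjusted p = 0.069, limma), the only one of the 9 with an unadjusted p below 0.05. It passed without the 2 libraries that went against their label (0.56, adjusted p = 0.0237, limma), and without any of 5 single mice: ND unligatured WT mouse 2 (0.58), ND ligatured CCL19-KI mouse 1 (0.54), 40% HFD ligatured WT mouse 2 (0.54), 40% HFD unligatured CCL19-KI mouse 1 (0.59) or 60% HFD unligatured CCL19-KI mouse 3 (0.52). The other 8 genes differed by -0.15 to 0.05. In the same comparison, all 10 adipocyte markers were lower, 7 of them at an unadjusted p below 0.05. Only *Adipoq*, the locus of the insert, was called (-1.75, adjusted p = 1.18e-05, limma). The sums were 6218 to 26710 normalised CPM in CCL19-KI and 4877 to 29660 in WT mice. All 10 endothelial markers were higher, with 0 called by limma or edgeR and 8 at an unadjusted p below 0.05, and sums of 138 to 373 and 131 to 234. The part of these cell types in the *Lama5* value was not tested.

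Within each diet and ligature state, 3 CCL19-KI mice were compared with 3 WT mice. The share of all genes without overlap between such groups is not given, so nothing is read from a lack of overlap. In unligatured mice fed an ND, *Lamc1* and *Hspg2* were lower in CCL19-KI mice. *Lamc1* was 274, 164 and 176 normalised CPM in CCL19-KI and 409, 290 and 392 in WT mice, without overlap, a difference of -0.85 (SE 0.27, adjusted p = 0.0362, limma). *Hspg2* was 928, 273 and 331 in CCL19-KI and 1147, 809 and 806 in WT mice, where CCL19-KI mouse 1 lay among the WT mice, a difference of -1.05 (SE 0.36, adjusted p = 0.0449, limma). By edgeR, 0 of the 9 passed (*Lamc1* -0.78, adjusted p = 0.0629, and *Hspg2* -0.80, adjusted p = 0.13), and 5 had an unadjusted p below 0.05 by limma. For this comparison, 16.6% of all genes passed, so 2 of 9 is near the background.

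*Lama5* went the other way in the same mice, with 40.5, 36.4 and 39.5 normalised CPM in CCL19-KI and 26.9, 27.9 and 10.6 in WT mice (0.92, SE 0.34, adjusted p = 0.0604, limma). Its groups did not overlap, and neither did those of *Lama2*, which was lower in CCL19-KI mice (-0.41, adjusted p = 0.427, limma). *Lamc1* did not pass without WT mouse 1 or 3 (-0.75 and -0.79) or CCL19-KI mouse 2 or 3 (-0.71 and -0.76). *Hspg2* did not pass without any of the WT mice (-0.88, -1.13 and -1.14) or CCL19-KI mouse 2 or 3 (-0.71 and -0.85), nor without the 2 libraries that went against their label (-1.13, adjusted p = 0.0548), where *Lamc1* (-1.001, adjusted p = 0.0271, limma) and *Lama5* passed.

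The unligatured ND-fed CCL19-KI mice also differed in markers. All 10 adipocyte markers were lower, 5 of them called (*Plin1* -2.19, *Lep* -2.17, *Adipoq* -2.04, which is the locus of the insert), with sums of 15480, 6591 and 6218 normalised CPM against 23170, 16140 and 29660 in WT mice. Of 10 hepatocyte markers, 9 were called higher (*Alb* 8.73, *Apoa1* 8.49, *Ahsg* 8.06), with sums of 1102, 23310 and 28620 against 131, 1125 and 1541. With the hepatocyte score as a covariate, *Lamc1* was -0.28 (adjusted p = 0.667) and *Hspg2* -0.35 (adjusted p = 0.683, limma), and neither passed. Among the 46 genes of the basement membrane and receptor lists, 8 were called, near the background of 16.6%. Of these, 1 was higher, *Lamc3* (1.32), and 7 lower, among them *Col15a1* (-2.53), *Col4a2* (-1.59), *Col4a1* (-1.26), *Itga7* (-1.91), *Itga6* (-1.88), *Pxdn* (-1.58) and *P3h1* (-0.75).

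Other lists in these mice had few calls. Among endothelial markers *Kdr* (1.02), among fibroblast and progenitor markers *Dpp4* (1.201), among mesothelial markers *Wt1* (1.37) and among kidney tubule markers *Slc12a3* (1.88) were called higher, the only gene of each list. Called lower were the pericyte markers *Cspg4* (-2.82) and *Rgs5* (-1.11), the macrophage marker *Itgam* (-1.34) and the skeletal muscle marker *Ryr1* (-1.08). The part of these cell types was not tested.

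In unligatured mice fed a 60% HFD, *Lama5* was higher in CCL19-KI mice, with 23.1, 37.4 and 40.5 normalised CPM against 19.3, 15.6 and 13.5 in WT mice. The groups did not overlap, and the difference was 0.99 (SE 0.34, 95% CI 0.30 to 1.68, adjusted p = 0.0445, limma, also called by edgeR), where 16.8% of all genes passed. The groups of *Lamb2* (higher in CCL19-KI mice), *Lama4* and *Nid1* (both lower) did not overlap either, and these genes were not called. Epididymis markers were high in the same libraries, with sums of 378, 8162 and 13080 normalised CPM against 0.201, 0.250 and 0.230 in WT mice, in which 9 of the 12 markers had 0 reads. All 8 of the tested ones were higher, 4 of them called (*Crisp1* 9.66, *Defb42* 6.53, *Adam7* 6.00). *Lama5* did not pass with the epididymis score as a covariate (0.67, adjusted p = 0.379, limma) or without the libraries with most epididymal markers (0.50, adjusted p = 0.497). That fit kept CCL19-KI mouse 1 alone, whose epididymis markers still summed to 378 normalised CPM, and assumed that it varies like the other groups. It did not pass without the 2 libraries that went against their label (0.84, adjusted p = 0.11), without any of the 3 WT mice (1.12, 0.97 and 0.88) or without CCL19-KI mouse 2 or 3 (0.90 and 0.84).

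In these mice, other markers moved too. Of 10 smooth muscle markers, 5 were called higher (*Actg2* 7.40, *Myh11* 4.36, *Lmod1* 2.23), and so were *Prx* of the Schwann cell list (1.09) and *Krt19* of the mesothelial list (2.00). All 10 hepatocyte markers (*Alb* -6.55, *Serpina1a* -6.12, *Ahsg* -5.99), 5 of 9 kidney tubule markers (*Kap* -5.46, *Slc34a1* -4.65, *Slc22a6* -3.01) and *Adipoq*, the locus of the insert (-2.03), were called lower. Among the 46 genes of the basement membrane and receptor lists, 4 were called higher. They included the integrin chains *Itgb4* (2.15) and *Itga3* (1.70) and the collagen-modifying enzyme *P4ha2* (1.19). Called lower were *Col18a1* (-0.90) and *Smoc1* (-1.06).

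In the other 4 comparisons of genotypes, limma and edgeR called 0 of the 9 genes. The background was as low: 1.03% of all genes in ligatured mice fed an ND, 0.0112% in those fed a 40% HFD, 0.0112% in those fed a 60% HFD and 0.0056% in unligatured mice fed a 40% HFD. At an unadjusted p below 0.05, 1 gene passed in ligatured ND-fed mice, *Lamb1* (242, 200 and 240 normalised CPM in CCL19-KI against 462, 306 and 348 in WT mice, -0.69, SE 0.27, adjusted p = 0.238, limma), and 0 in the others. The 3 WT mice lay above the 3 CCL19-KI mice, as they also did for *Lama4* and *Hspg2*. The CCL19-KI libraries of this comparison also differed in markers. Of 10 skeletal muscle markers, 6 were called higher (sums of 591, 182 and 206 normalised CPM against 60.2, 66.1 and 144). All 10 smooth muscle markers were higher (0 called by limma, 3 by edgeR, 10 at an unadjusted p below 0.05), with sums of 5929, 3689 and 438 against 231, 242 and 373. All 10 adipocyte markers were lower (1 called, *Adipoq*, the locus of the insert), with sums of 10740, 8714 and 12780 against 21310, 19030 and 18120. Epididymis markers summed to 2876, 1266 and 17.9 against 1.03, 0.861 and 4.88. The part of these cells in the *Lamb1* value was not tested.

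**Figure D5:**
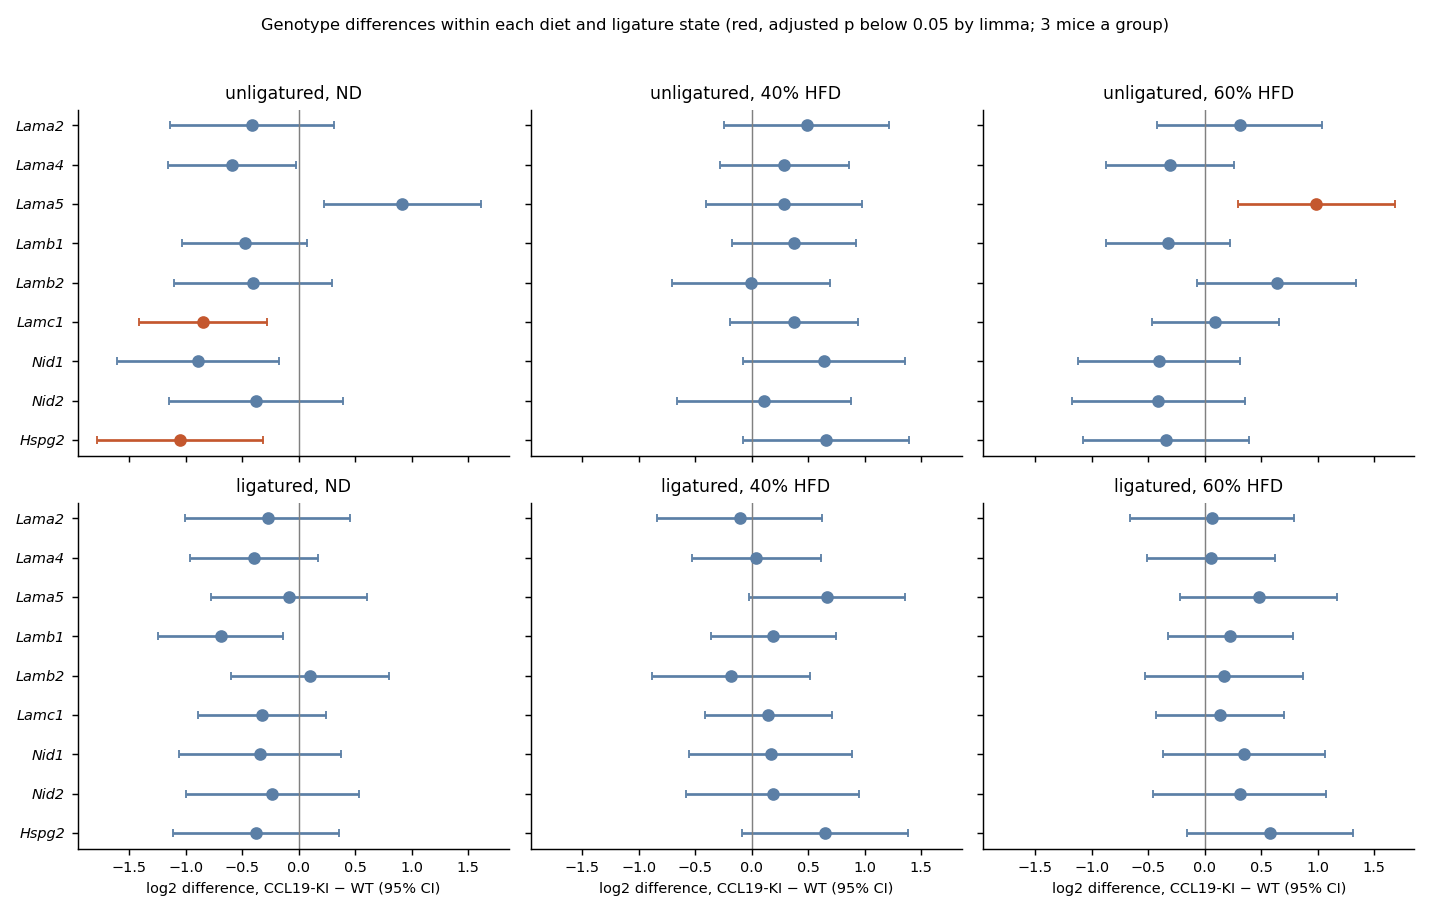
Log2 difference between CCL19-KI and WT mice (horizontal axis) with 95% confidence intervals for the 9 genes in each diet and ligature state, 3 mice a group; red marks an adjusted p below 0.05. *Lamc1* (-0.85) and *Hspg2* (-1.05) are red in unligatured mice fed an ND and *Lama5* (0.99) in unligatured mice fed a 60% HFD, and the other 4 panels have no red point.

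How the genotype difference varied with diet was tested as an interaction averaged over ligature. All 9 genes had a higher CCL19-KI minus WT difference under the 40% HFD than under the ND, by 0.06 to 1.37 (median 0.66, all genes -0.01), and limma and edgeR called 0 of them (5 at an unadjusted p below 0.05), as they called 0% of all genes. *Hspg2* was highest among the 9, with 1.37 (95% CI 0.63 to 2.10, adjusted p = 0.252, limma), followed by *Nid1* with 1.02 (adjusted p = 0.293). Under the 60% HFD against the ND, the 9 differences were 0.26 to 0.83 (median 0.54, all genes 0.07), with 0 called by limma or edgeR (2 at an unadjusted p below 0.05) beside 0.476% of all genes. The 9 genes share libraries, so their common sign is not 9 separate observations. All 10 adipocyte markers were higher in both interactions as well, with medians of 1.14 (40% HFD) and 0.67 (60% HFD). Limma and edgeR called 0 of them (6 and 3 at an unadjusted p below 0.05). The part of adipocytes in the values of the 9 genes was not tested.

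Across the 36 libraries, the 9 genes fell into sets by their correlation on the log2 scale, given as a description since libraries share their groups and tissue makeup. *Nid1* and *Hspg2* had the highest Pearson correlation of the 36 pairs (0.91), then *Lama4* and *Lamc1* (0.89), *Lama4* and *Lamb1* (0.85) and *Lama2* and *Lamc1* (0.81). With the group means taken out, these were 0.88, 0.92, 0.84 and 0.78. *Lama5* stood apart, with correlations to the other 8 from -0.39 (*Lama4*) to 0.16 (*Lamb2*). The mean log2 level of the adipocyte markers followed *Lama4* (0.82), *Nid1* (0.79), *Lamc1* (0.72), *Lamb1* (0.66) and *Hspg2* (0.63). It followed *Lama2* (0.40), *Nid2* (0.37) and *Lamb2* (0.14) less and ran against *Lama5* (-0.50). For the macrophage markers, the correlations were from -0.15 (*Lama5*) to 0.67 (*Lamc1*), with 0.47 for *Lamb1* and 0.47 for *Hspg2*.

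For each of the 9, the 3 genes with the highest Pearson correlation over the 36 libraries were taken as most alike. *Hspg2* was closest to *Col4a2* (Pearson correlation 0.95), *Col4a1* (0.92) and *Itga7* (0.92), the collagen chains it links to and an integrin chain that binds laminin. *Nid1* was close to *Amotl1* (0.93) and *Gm37829* (0.93), and *Lamb1* closest to *Rasa3* (0.91), *Nedd4* (0.86) and *Syne3* (0.86). *Lama2* was closest to *Ltbp1*, *Tnxb* and *Dpep1* (each 0.85), *Lama4* to *Ebf1*, *Fgfr1* and *Anapc1* (each 0.89), and *Lamc1* to *Adamts12* (0.87), *Fgfr1* (0.86) and *Soga1* (0.86). *Lamb2* was closest to *Susd2* (0.86), *Itm2a* (0.83) and *Sfrp1* (0.83), *Nid2* to *Tnks1bp1* (0.80), *Ptpn14* (0.78) and *Ptgfrn* (0.77), and *Lama5* to *Cadm1* (0.69), *Pear1* (0.67) and *Tmc6* (0.67).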

How the data were processed

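RNA-seq of eWAT from 36 mice was analysed from the table the authors deposited. Per the labels and the study's methods, libraries were made with rRNA depletion and a directional kit, reads were trimmed with Trimmomatic 0.38 and aligned with Bowtie2 within RSEM 1.3.0, and genes were normalised with edgeR. The deposited values are a signal, edgeR-normalised CPM, and not counts. The methods name mm10 and the labels GRCm39; the table holds no coordinates, and GENCODE M21 (GRCm38) supplied the positions. Dividing by the worth of 1 read gave whole numbers for 100% of values per library (tolerance 0.01), so reads could be recovered for edgeR.

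The 9 genes and all lists were chosen with earlier results of these data known. Values were transformed to log2(normalised CPM + 1). Genes reaching 1 normalised CPM in 3 or more of the 36 libraries (17852) were tested with limma 3.58.1 in R 4.3.3 (12 group means, 24 residual degrees of freedom, eBayes with an intensity trend), and p-values were adjusted over all of them by the Benjamini-Hochberg method at 0.05. The pseudocount of 1 makes differences of genes with low values smaller. P-values rest on the spread between the 3 samples of a group, taken as 1 value per gene over all 12 groups and moderated across genes. They do not reflect a wider or narrower spread in a single group. Replicates of a group differed well beyond counting noise (chi-square per degree of freedom 16.9 to 372 in 36 pairs). All 9 genes are named, and of each list up to 3 called genes with the largest difference in comparisons where a member was called; for each member, the 3 genes most correlated with it were named. A few genes that this rule selects are not reported here. *Lamb1* and *Adipoq* in ligatured ND-fed mice, *Adipoq* averaged over diets, *Col4a1* and *Col4a2* under the ligature, and the interaction values were chosen after their values were seen. The 13 alternative settings were leaving out each mouse in turn, pseudocounts, filters, normalization, a replicate block, sample weights, marker scores as covariates, edgeR 4.0.16 on recovered reads and a fit of 18 mice. Another 3 were chosen after seeing the data. The procedure was tested on simulated data.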

Additional observations from a re-analysis of the deposited data

Results flagged for a closer look

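*Hspg2* differed in sign between genotypes in 2 settings, with no overlap between the groups in either. Neither difference passed (adjusted p = 0.738 on the 40% HFD and 0.774 on the ND, limma), where 0.0056% and 1.03% of all genes did. The share of all genes with such a separation is not given. All 3 CCL19-KI mice were above all 3 WT mice without a ligature on the 40% HFD, with a log2 difference of 0.66 (1162, 975 and 872 against 395, 745 and 847 normalised CPM), and all 3 were below on the ND with the ligature, with a log2 difference of -0.38 (416, 509 and 499 against 617, 528 and 710). In ligatured ND-fed mice, 6 of 10 skeletal muscle markers were called higher in CCL19-KI mice. All 10 adipocyte markers were lower in them (1 called, *Adipoq*, the locus of the insert), and epididymis markers summed to 2876, 1266 and 17.9 normalised CPM against 1.03, 0.861 and 4.88. Their part was not tested, and neither was the difference between these 2 settings.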

How the results depend on the processing

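Of 1245 values recomputed under an alternative, 1105 kept their direction and their side of the threshold, 48 lost a call, 26 gained one, 66 moved and 0 reversed among the called values. For the 40% HFD against the ND, 1 gene was called in place of 0 with a pseudocount of 0.1, a mean value of at least 5, median-of-ratios size factors, the hepatocyte score as covariate, quantile normalization and edgeR, 2 with sample weights, and 0 to 2 with a mouse left out. For the 60% HFD against the ND, 0 in place of 2 were called without the libraries with epididymal markers, 1 without those whose *Ccl19* went against their label and 1 to 2 with a mouse left out; *Nid1* was 0.35 (adjusted p = 0.223) after quantile normalization, where *Lamb1* was called lower in its place, and sample weights added *Nid2*, lower (3 called).

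Averaged over diets, CCL19-KI against WT gave 1 call with sample weights and without the libraries whose *Ccl19* went against their label, and 0 to 1 with a mouse left out. In unligatured mice fed an ND, 2 calls became 1 with no filter or median-of-ratios size factors, 0 with quantile normalization, the hepatocyte score, both scores, edgeR or a fit of the 18 mice, 7 with sample weights, and 0 to 4 with a mouse left out. In unligatured mice fed a 60% HFD, 1 call became 0 with no filter, either or both scores, the fit of 18 mice, or without the epididymal or the *Ccl19* libraries, 3 with sample weights, and 0 to 1 with a mouse left out. Sample weights (0.167 to 11.3, from an estimation that did not converge) also gave 2 calls in ligatured ND-fed mice, 2 and 1 for the ligature difference by diet (40% and 60% HFD) and 5 and 6 for the genotype difference by diet, where leaving out a mouse gave 0 to 3 and 0 to 1.

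Counts over all genes depended on these choices as well: the 58 genes for the ligature were 44 to 2258, the 1645 and 3315 for the 40% and 60% HFD 139 to 4797 and 1863 to 7846, the 133 between the HFDs 81 to 1448, the 82 for genotype 41 to 3795, the 184 in ligatured ND-fed mice 13 to 7549, the 2955 and 2998 in unligatured mice fed an ND and a 60% HFD 188 to 8842 and 2 to 4055, and the 85 for the genotype difference by diet (60% HFD) 4 to 6110. The counts of 0 to 2 of the other contrasts reached at most 58 in single groups (sample weights) and 1517, 2523, 5269 and 3349 for the interactions. The median of all genes in unligatured ND-fed mice was between -0.16 and -0.04 and in those fed a 60% HFD between -0.05 and 0.13.

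No common pairing of the mice by replicate number was seen. Over 198 pairs with the same number, the median correlation of deviations was -0.02 (-0.66 to 0.71), against 0.02 for other numbers. Of the 36 libraries, 10 were closest to their own number. Whether some libraries were processed together by number is not known. With the number as a replicate block, 1 call changed, *Hspg2* on the 40% HFD (0.55, adjusted p = 0.0496, limma; 1 gene called). The fewest reads behind a value of the 9 genes were 111 (*Lama5*).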
